A study of Mus musculus with 15 samples.

Results

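The general transcription machinery outside TFIIH comprised 64 of the 8251 genes that the array measured with a single-symbol probe set. A gene was a member if its symbol began with Polr1, Polr2, Polr3, Gtf, Taf or Med followed by a digit, Tcea, Tceb, Supt, Ell or Nelf, or was Tbp. The TFIIH genes (symbols beginning with Gtf2h) and Polr2a were left out. Each gene was represented by its probe set with the highest mean intensity, and no measured difference entered the choice of probe set. The members themselves were chosen with earlier results of these data known. By role, the members were 5 subunits of RNA polymerase I, 10 of polymerase II and 3 of polymerase III, 7 TBP and basal factor genes, 5 TAFs counted with TFIID, 4 TAFs of SL1, 7 TFIII factors and TFII-I relatives, 12 Mediator subunits, 10 elongation factors and Tceal9. Tceal9 entered through its Tcea-like prefix, and Taf15, counted with the TFIID group, belongs to the FET family of RNA-binding proteins.

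RNA from whole mouse hearts had been hybridised to 15 one-colour arrays. Knockout animals (CKO) carried an αMHC-Cre transgene and MAT1 F/F, that is, 2 floxed MAT1 alleles. Control littermates carried the same transgene and MAT1 F/+, with 1 floxed and 1 wild-type allele, so every animal had Cre and at least 1 floxed allele. The αMHC promoter drives Cre in cardiomyocytes, and the other cells of the heart keep the gene in both genotypes. There were 3 control and 4 CKO arrays at 2 weeks of age and 3 control and 5 CKO arrays at 4 weeks. The labels number the arrays but do not say whether each came from its own mouse, so the p-values measure the spread between arrays, which may be technical. MAT1 (gene symbol Mnat1) is the assembly factor of the CDK7 and cyclin H kinase within TFIIH.

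RNA polymerase II starts transcription together with TFIIA, TFIIB, TFIID, TFIIE, TFIIF and TFIIH, and Mediator links these factors to activators bound elsewhere. The TFIIH kinase phosphorylates the C-terminal domain of the largest polymerase II subunit as the enzyme leaves the promoter. Downstream, NELF and DSIF hold the polymerase in a paused state, ELL proteins raise the elongation rate, and TFIIS, the product of the Tcea genes, lets a backtracked polymerase cut its transcript and resume. Polymerases I and III use TBP with factors of their own, SL1 for ribosomal RNA genes and TFIIIA, TFIIIB and TFIIIC for small RNA genes.

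By their correlation over all probe sets, the arrays fell into a set of 6 and a set of 9, both of which held arrays of every group. Arrays of one set correlated at 0.937 or more and arrays of different sets at 0.924 or less, and the labels name no batch. Results are therefore given both without this array set in the fit and with it as a blocking factor (the set block). The set was found from these same intensities, and p-values with the set block treat it as known beforehand. The 2 Mnat1 probe sets did not check the labels: at 4 weeks they differed by 0.53 ± 0.47 (adjusted p = 0.726) and -0.03 ± 0.27 (adjusted p = 0.994) on the log2 scale, CKO minus control, in limma over all probe sets, and the sources used here do not say whether they lie in the deleted part. Of 6 cardiomyocyte markers, 5 were lower in CKO than in control hearts at 4 weeks, and their summed intensity was 48490 to 51780 in control and 37030 to 39850 in CKO hearts. All 6 fibroblast markers were higher at 4 weeks, with sums of 9109 to 10540 in control and 19850 to 26510 in CKO hearts, and no gene of these 2 lists lay at the lowest deposited value on any array. Of 6 smooth muscle and pericyte markers, 2 were called higher at 4 weeks, Acta2 (1.01 ± 0.19) and Cnn1 (1.45 ± 0.33), and their sums were 3854 to 4569 in control and 5448 to 8946 in CKO hearts; at 2 weeks these sums did not overlap either, at 5213 to 6353 and 6821 to 8626. Neither of the 2 measured erythroid markers was called, although their sums at 4 weeks were 5890 to 7325 in control and 7430 to 13310 in CKO hearts. The sums of the endothelial, macrophage, lymphocyte and adipocyte markers overlapped between the 4-week groups. Of the 5 tested endothelial markers, 1 was called higher, Eng (0.54 ± 0.14, adjusted p = 0.0198, limma). None was called lower, although Tie1 (-0.51 ± 0.34), Kdr (-0.37 ± 0.29) and Tek (-0.16 ± 0.20) had negative differences. At 2 weeks none of the 31 tested markers was called by limma, and 4 had an unadjusted p under 0.05.

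At 4 weeks of age, the later of the ages at which CKO hearts were compared with control hearts, 3 members rose and 1 fell. Tcea3, a TFIIS gene, fell 6.53-fold. Ell2, an elongation factor gene, rose 2.68-fold, Gtf2a1, which encodes the large TFIIA subunits, rose 1.60-fold, and Polr2l, a subunit shared by all 3 nuclear polymerases, rose 1.53-fold. These 4 were 8.33% of the 48 members bright enough to be tested, against 11.2% of all 4950 tested genes (6.63% higher and 4.61% lower). A gene is called here when its adjusted p lies under 0.05 in limma, with Benjamini-Hochberg adjustment over all tested genes. Differences are on a scale of log2(intensity + 16), which understates changes of dim genes, and the errors beside them are standard errors. Folds are back-transformed from these differences and are not ratios of mean intensities. The members' median difference was 0.16 and that of all tested genes 0.09, and 34 of the 48 members had a positive difference. After quantile normalization 28 members were positive and their median was 0.06. An unadjusted p under 0.05 was found for 11 members and for 1135 of all tested genes. Of all calls, 59.0% were higher in CKO hearts, against 44.1% after quantile normalization and 44.8% after median scaling. The 4 member calls kept their direction and their call under both, and quantile normalization added Gtf2i and Polr2m as lower, which gave 3 higher and 3 lower. In whole hearts, fewer cells of a type and less RNA per cell cannot be told apart. The marker sums of cardiomyocytes, fibroblasts, smooth muscle cells with pericytes, and erythroid cells did not overlap between the groups at this age, and 4 of 5 CKO arrays but 1 of 3 control arrays were inferred to be female from Xist and Uty. The part of these markers in the members' differences was not tested.

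**Figure D1:**
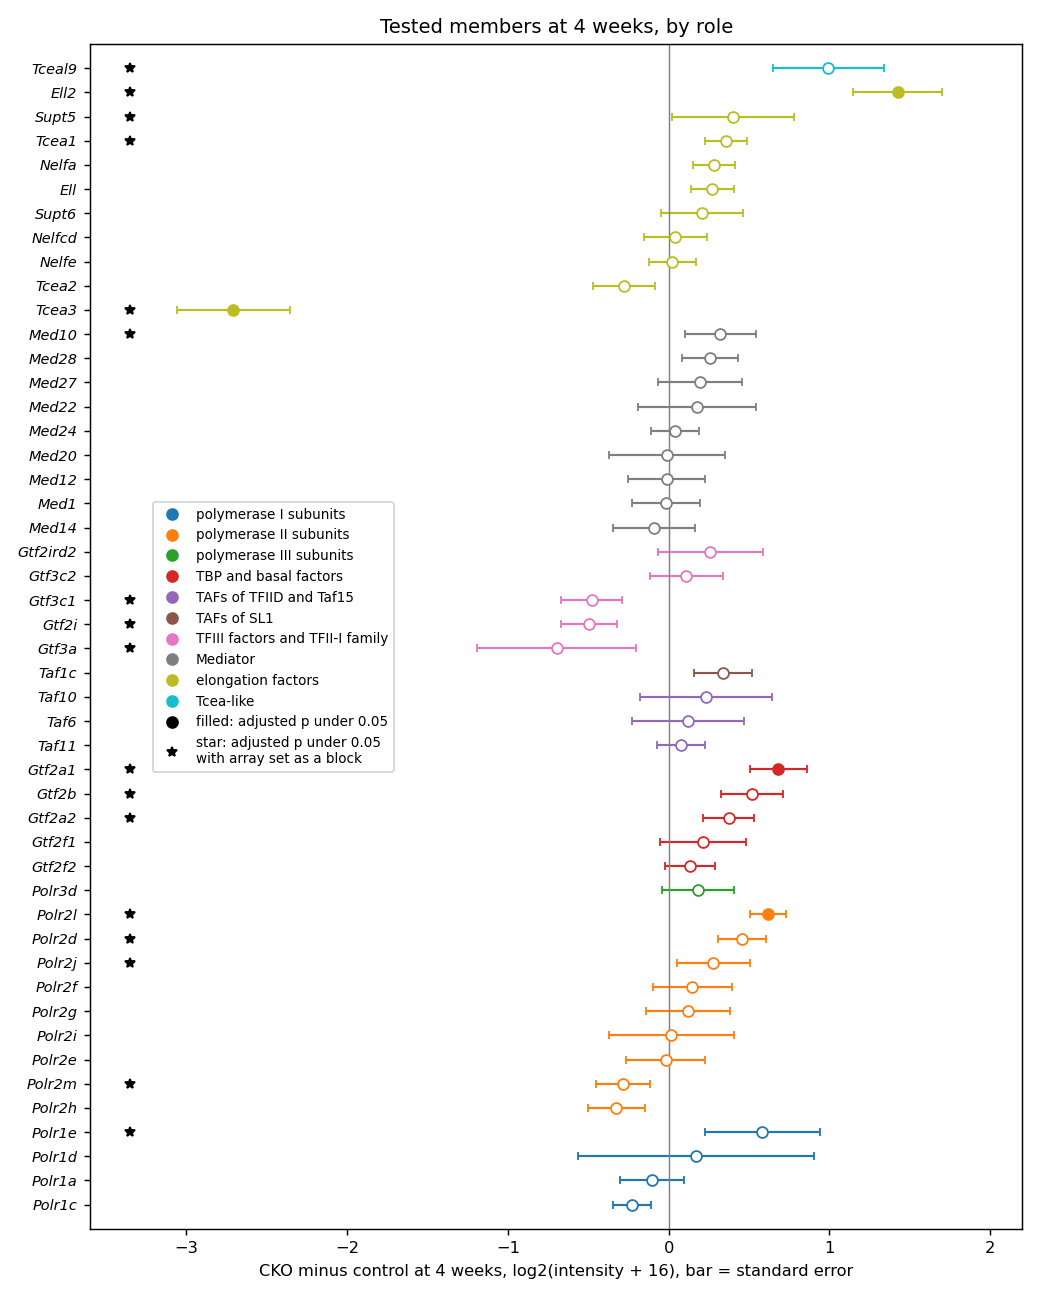
Differences at 4 weeks, CKO minus control, for the 48 tested members, on the log2(intensity + 16) scale, grouped by role, with standard errors as bars; filled points are called without the set block and stars with it. Tcea3 lies far to the left at -2.71 and Ell2 far to the right at 1.42, while most members lie near 0.

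The promoters of these 4 called genes are shown because these were the members called at 4 weeks. They come from RefSeq on the GRCm38.p6 build and run from 250 bases before to 50 bases after the annotated start, on the gene's strand. Tcea3 lies at chr4:136247707-136248006 on the plus strand, Ell2 at chr13:75707234-75707533 on the plus strand, Polr2l at chr7:141475104-141475403 on the minus strand and Gtf2a1, for the first of its 2 listed starts, at chr12:91590438-91590737 on the minus strand. Capitals mark matches, on either strand, to 5 motifs chosen after the sequences were seen. They were TATAAA for the classical core promoter element, GGGCGG for the GC box, CCAAT for the element of that name, TGACGT for the CRE-type element, and a MEF2-type motif of CTA, any 4 bases and then TAG. Matches that overlap run together as 1 stretch of capitals.
Tcea3: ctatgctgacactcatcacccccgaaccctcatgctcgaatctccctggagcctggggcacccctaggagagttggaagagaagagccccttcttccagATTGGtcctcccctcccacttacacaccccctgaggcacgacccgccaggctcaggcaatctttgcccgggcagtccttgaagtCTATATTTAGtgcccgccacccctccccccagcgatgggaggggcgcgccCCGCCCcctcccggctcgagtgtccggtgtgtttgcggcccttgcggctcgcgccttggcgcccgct
Ell2: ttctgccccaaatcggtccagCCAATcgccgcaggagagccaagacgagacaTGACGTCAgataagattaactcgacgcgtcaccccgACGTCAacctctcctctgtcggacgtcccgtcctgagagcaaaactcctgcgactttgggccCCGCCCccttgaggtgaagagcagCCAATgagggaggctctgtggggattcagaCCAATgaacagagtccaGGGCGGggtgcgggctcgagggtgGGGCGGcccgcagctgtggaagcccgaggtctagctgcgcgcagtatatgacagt
Polr2l: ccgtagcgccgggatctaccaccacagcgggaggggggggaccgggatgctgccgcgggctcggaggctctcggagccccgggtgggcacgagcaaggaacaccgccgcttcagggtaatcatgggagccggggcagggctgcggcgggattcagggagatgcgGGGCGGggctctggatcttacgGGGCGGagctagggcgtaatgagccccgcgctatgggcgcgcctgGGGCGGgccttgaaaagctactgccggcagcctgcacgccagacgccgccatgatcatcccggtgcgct
Gtf2a1: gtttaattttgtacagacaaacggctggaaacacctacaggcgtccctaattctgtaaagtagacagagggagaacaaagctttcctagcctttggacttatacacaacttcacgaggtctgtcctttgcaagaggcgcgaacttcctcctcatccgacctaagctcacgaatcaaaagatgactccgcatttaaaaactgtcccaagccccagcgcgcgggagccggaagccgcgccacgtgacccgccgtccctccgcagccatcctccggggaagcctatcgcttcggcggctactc

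The Tcea3 window held the MEF2-type match CTATATTTAG starting 67 bases before the annotated start, beside 1 CCAAT match and 1 GC box. That motif was in 4.23% of all 27025 genes with a window and in 1 of the 53 members with one, Tcea3. The Ell2 window held 3 GC boxes, 3 CCAAT matches and 3 CRE-type matches, of which a pair overlaps. The CRE-type motif was found in 11 members (20.8%) and in 8.37% of all genes. Polr2l had 3 GC boxes, a motif found in 35 members (66.0%) and 38.2% of all genes. Neither Gtf2a1 window held any of the 5 motifs. TATAAA occurred in 6 members (11.3%) and 15.7% of all genes, and CCAAT in 19 members (35.8%) and 41.1% of all genes. The median count of CG dinucleotides was 23 in members, over 1 window each. It was 7 over all 32851 windows, taken without regard to whether the array measured the gene. The count was 19 in Tcea3, 23 in Ell2, 32 in Polr2l and 22 in the first Gtf2a1 window. A match describes the letters only.

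Among the 10 elongation factors, all of them tested, 1 was called higher and 1 lower at 4 weeks. The group's median difference was 0.24. Tcea3 encodes a TFIIS known for expression in heart and skeletal muscle. In control hearts its intensities were 246.0, 756.4 and 882.3 at 4 weeks, and in CKO hearts of that age they were 53.26, 65.83, 100.5, 68.57 and 72.02. Every CKO array was thus below every control array, although the lowest control array stood far below the others. That array was the only 4-week control in the smaller array set. Tcea3 fell by 2.71 ± 0.35 on the log2 scale (adjusted p = 0.000206, limma), from a mean of 628 ± 337 (SD, n = 3) to 72.0 ± 17.4 (SD, n = 5). Within the smaller array set the difference was -1.80 ± 0.16 and within the larger -3.13 ± 0.18, and leaving out any 1 array gave -3.26 to -2.37. The Tcea3 window printed above carried the only MEF2-type match among the members, but that motif was chosen after the window was seen. It was in 4.23% of all genes with a window, and its part in the fall of Tcea3 was not tested.

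Ell2 encodes a subunit of the super elongation complex. At 4 weeks its intensities were 282.1, 197.4 and 261.6 in control hearts and 736.4, 711.7, 585.8, 861.7 and 560.5 in CKO hearts. No array of one group reached the other, and the lowest CKO value was far above the highest control value. Ell2 rose by 1.42 ± 0.28 (adjusted p = 0.00399, limma), from 247 ± 44.2 (SD, n = 3) to 691 ± 122 (SD, n = 5). The difference was 1.31 ± 0.28 in the smaller and 1.47 ± 0.22 in the larger array set. A second Ell2 probe set gave 1.41 ± 0.34 (adjusted p = 0.0211 over all probe sets), while the third, with a mean intensity of 61.4, gave 0.23 ± 0.31 (adjusted p = 0.867).

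The other TFIIS genes were not called at 4 weeks. Tcea1, the widely expressed paralog, read 495.7, 515.4 and 543.4 in control and 606.8, 592.7, 670.0, 741.8 and 738.3 in CKO hearts, without overlap, and its difference was 0.36 ± 0.13 (adjusted p = 0.107). Its 3 probe sets gave 0.36, 0.36 and 0.25. Tcea2, known for expression in testis, overlapped between the groups at -0.28 ± 0.19 (adjusted p = 0.470). The TFIIS genes thus differed in sign, and whether the 3 differed from each other was not tested.

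Ell, the relative of Ell2, read 383.2, 378.2 and 314.2 in control and 446.3, 470.4, 450.9, 388.9 and 420.8 in CKO hearts, without overlap, with a difference of 0.27 ± 0.14 (adjusted p = 0.261). Nelfa, a NELF subunit, also separated the groups at 0.28 ± 0.13 (adjusted p = 0.224), with 263.8 to 288.8 in control and 315.6 to 372.6 in CKO hearts. Nelfcd and Nelfe, which belong to the same pausing complex, differed by 0.04 ± 0.19 and 0.02 ± 0.15. Supt5, the large subunit of DSIF, ranged widely within groups (261.4 to 648.3 in control and 365.7 to 876.9 in CKO hearts) and differed by 0.40 ± 0.38 (adjusted p = 0.657). Supt6, a histone chaperone of elongating polymerase, differed by 0.20 ± 0.25 (adjusted p = 0.756).

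Of the 9 tested polymerase II subunits, 1 was called higher at 4 weeks and none lower. The group median was 0.12 (0.04 after median scaling and -0.01 after quantile normalization), with a range of -0.33 to 0.62. Polr2l read 2019, 1915 and 2119 in control hearts and 3581, 3612, 3134, 2655 and 2667 in CKO hearts. All 5 CKO arrays lay above all 3 control arrays, which were close to each other. Polr2l rose by 0.62 ± 0.11 (adjusted p = 0.00246, limma), from 2018 ± 102 (SD, n = 3) to 3130 ± 468 (SD, n = 5), by 0.83 ± 0.10 in the smaller and 0.48 ± 0.10 in the larger array set. Polr2d, a stalk subunit, also separated the groups, with 178.7, 165.8 and 220.0 in control and 312.3, 285.9, 238.1, 245.5 and 236.7 in CKO hearts, and a difference of 0.46 ± 0.15 (adjusted p = 0.0641). Polr2h, shared by all nuclear polymerases like Polr2l, had the most negative value at -0.33 ± 0.18 (adjusted p = 0.323). Polr2m, whose product competes with TFIIF for the polymerase, was at -0.28 ± 0.17 (adjusted p = 0.359). Polr2c, a core subunit, was too dim to be tested, at 135.8 ± 26.2 (SD, n = 3) for control against 135.7 ± 57.9 (SD, n = 5) for CKO hearts.

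All 5 tested basal factor genes had positive differences at 4 weeks, also after quantile normalization or median scaling. Their median was 0.37, and 1 of them was called. Gtf2a1 read 308.6, 224.5 and 264.1 in control and 412.1, 454.0, 382.2, 545.1 and 387.2 in CKO hearts. The groups did not overlap. Gtf2a1 rose by 0.68 ± 0.18 (adjusted p = 0.0229, limma), from 266 ± 42.1 (SD, n = 3) to 436 ± 67.2 (SD, n = 5). This call was lost within the smaller array set (0.47 ± 0.14, adjusted p = 0.0506), with the replicate number as a block (adjusted p = 0.0769), and without control replicate 2, control replicate 3 or CKO replicate 4 at 4 weeks (adjusted p up to 0.135). Gtf2a2, the small TFIIA subunit, read 732.5, 876.2 and 1019 in control and 1016, 960.2, 1191, 1219 and 1296 in CKO hearts. These groups overlapped, and the difference of 0.37 ± 0.16 was not called (adjusted p = 0.167).

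Gtf2b encodes TFIIB, which joins the polymerase to TBP at the promoter. Its arrays gave 294.4, 322.6 and 365.3 for control and 401.9, 377.6, 433.1, 710.2 and 514.7 in CKO hearts, without overlap, and differed by 0.52 ± 0.19 (adjusted p = 0.105). The TFIIF genes Gtf2f1 and Gtf2f2 differed by 0.21 ± 0.27 and 0.13 ± 0.15. Tbp, which encodes the TATA-binding protein used by all 3 polymerases, was among the 16 members left untested as dim, at 59.3 ± 6.78 (SD, n = 3) for control against 66.6 ± 6.32 (SD, n = 5) for CKO hearts. Gtf2e2, the small TFIIE subunit, was dim as well and read 124 ± 31.9 (SD, n = 3) and 156 ± 28.5 (SD, n = 5).

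Among the TAFs, none of 3 tested TFIID members was called at 4 weeks, and neither was the 1 tested SL1 member. Taf10, a TFIID subunit that SAGA also contains, differed by 0.23 ± 0.41 (adjusted p = 0.844), Taf6 by 0.12 ± 0.35 and Taf11 by 0.08 ± 0.15. Taf1c, a subunit of SL1, differed by 0.34 ± 0.18 (adjusted p = 0.309). Taf8, Taf15, Taf1a, Taf1b and Taf1d were too dim to be tested. In a fit to all 8251 genes their differences ran from -0.32 (Taf15) to 0.09 (Taf1b), and none was called. The 3 probe sets of Taf1d, an SL1 subunit, disagreed in sign, at -0.13 ± 0.18, 0.18 ± 0.18 and -0.18 ± 0.30.

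None of the 4 tested polymerase I subunits was called at 4 weeks. Polr1c, a subunit shared with polymerase III, was lower in all 5 CKO arrays (267.0, 278.4, 244.1, 282.5 and 276.8) than in the 3 control arrays (304.4, 314.3 and 338.9), by a difference of -0.23 ± 0.12 that was not called (adjusted p = 0.279). Polr1e, a polymerase I subunit, ranged from 308.4 to 828.2 in CKO hearts and differed by 0.58 ± 0.35 (adjusted p = 0.389). Polr1a, the largest polymerase I subunit, differed by -0.11 ± 0.20 (adjusted p = 0.857). Polr1d, also shared with polymerase III, differed by 0.17 ± 0.73, and a dimmer probe set of the gene gave 1.41 ± 0.40 (adjusted p = 0.0531 over all probe sets) and the dimmest -0.05 ± 0.24. Of the polymerase III subunits only Polr3d was tested, at 0.18 ± 0.22 (adjusted p = 0.749). Polr1b, Polr3a and Polr3k were dim, with differences of 0.11, 0.01 and 0.02.

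The 5 tested TFIII factors and TFII-I relatives had a median of -0.48 at 4 weeks, the most negative of the groups, with none called. Gtf2i encodes TFII-I, a signal-responsive DNA-binding factor. Its arrays gave 637.5, 626.6 and 788.9 for control and 509.9, 496.8, 443.2, 400.0 and 560.3 in CKO hearts, without overlap, and differed by -0.49 ± 0.17 (adjusted p = 0.0902). Its second probe set gave -0.85 ± 0.25 (adjusted p = 0.0669 over all probe sets). Gtf3c1, the largest subunit of TFIIIC, also separated the groups, with 409.4, 296.7 and 414.7 in control and 294.3, 293.1, 229.9, 234.8 and 258.8 in CKO hearts, and a difference of -0.48 ± 0.19 (adjusted p = 0.132). The lowest control array lay close to the highest CKO array. Gtf3a, which encodes TFIIIA, differed by -0.70 ± 0.49 (adjusted p = 0.486), but its other probe sets had positive differences of 0.35 and 0.17. Gtf3c2, another TFIIIC subunit, differed by 0.11 ± 0.23, and Gtf2ird2, a TFII-I relative, by 0.26 ± 0.33, with -0.09 ± 0.17 in its dimmer probe set. Gtf3c4, also of TFIIIC, was too dim to be tested, and its 2 probe sets gave -0.02 ± 0.45 and 0.33 ± 0.17.

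Of the 9 tested Mediator subunits, none was called at 4 weeks without the set block. Their differences lay between -0.09 and 0.32 with a median of 0.04, which turned to -0.04 after median scaling and -0.05 after quantile normalization. Med10, a middle-module subunit, had the smallest p, with a difference of 0.32 ± 0.22 (adjusted p = 0.463). Med1, which binds nuclear receptors, differed by -0.02 ± 0.21, Med12 of the kinase module by -0.01 ± 0.24 and Med14, the scaffold, by -0.09 ± 0.25. Tceal9 read 337.6, 340.7 and 413.8 in control and 614.4, 631.0, 835.8, 810.9 and 823.7 in CKO hearts. The groups did not overlap, and the difference of 0.99 ± 0.34 missed the threshold (adjusted p = 0.0844).

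In all, 13 of the 48 tested members (27.1%) had 4-week groups without overlap, 9 higher and 4 lower in CKO hearts, against 17.4% of all tested genes. The higher ones were Ell, Ell2, Gtf2a1, Gtf2b, Nelfa, Polr2d, Polr2l, Tcea1 and Tceal9, and the lower ones Gtf2i, Gtf3c1, Polr1c and Tcea3.

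**Figure D2:**
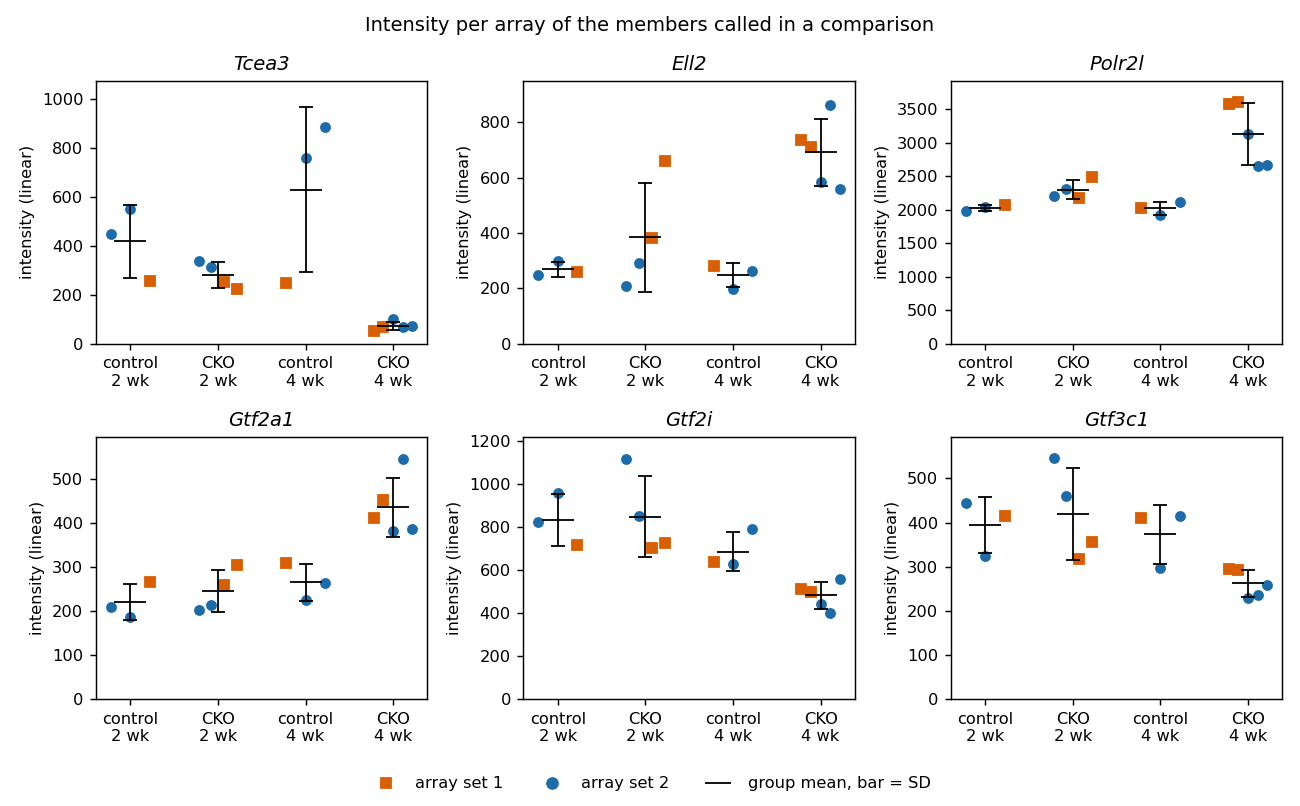
Linear intensity on every array for the 6 members called in any comparison, by genotype and age; squares and circles are the smaller and larger array set, horizontal lines are group means and bars are SD. The 5 CKO arrays at 4 weeks do not overlap the 4-week controls in any of the 6 panels, from 53.26 to 100.5 for Tcea3 and from 560.5 to 861.7 for Ell2; the groups nearly meet for Gtf3c1, at 294.3 against 296.7.

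With the set block, 17 members were called at 4 weeks (12 higher and 5 lower), or 35.4% of those tested, against 35.5% of all tested genes. With inferred sex as a further block the count was again 17, against 31.7% of all tested genes. Among the 4-week controls the 2 blocks coincide, with the only female in the smaller set and the males in the larger. Their separation in that fit rests on the other groups. The 4 calls without the block were kept, with Tcea3 at -2.66 ± 0.22, Ell2 at 1.40 ± 0.23, Polr2l at 0.61 ± 0.09 and Gtf2a1 at 0.66 ± 0.14. The added higher members were Tceal9, Polr1e, Gtf2b, Supt5, Polr2d, Gtf2a2, Tcea1, Med10 and Polr2j, and the added lower ones Gtf3a, Gtf2i, Gtf3c1 and Polr2m. Tceal9 was then 1.04 ± 0.19 higher (adjusted p = 0.000577) and Gtf2a2 0.40 ± 0.08 higher (adjusted p = 0.000825), while Gtf2i stood at -0.48 ± 0.14 (adjusted p = 0.0147). The TFIII and TFII-I group then had 3 lower members and 0 higher ones, of which Gtf3a had probe sets of opposite sign, as given above. Within the smaller and the larger set alone, 12 and 12 members were called, against 23.6% and 29.1% of all tested genes. The smaller set holds 1 control array at 4 weeks, whose spread is assumed to be that of the other groups.

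**Figure D3:**
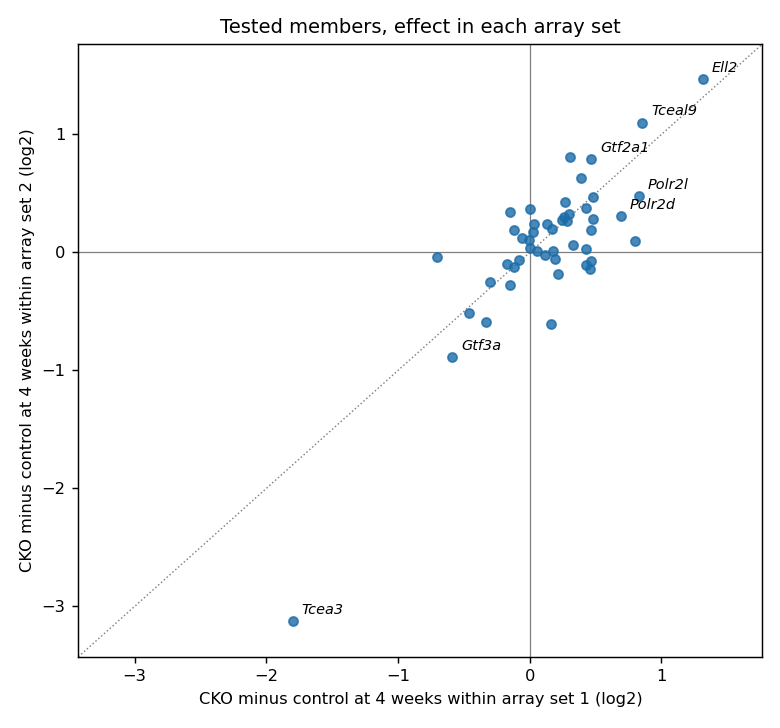
Differences at 4 weeks, CKO minus control, of the 48 tested members in the smaller array set (x axis) and the larger (y axis), both in log2 units, 1 point per gene; the dotted line marks equality. Tcea3 is lowest in both sets, at -1.80 and -3.13, and 36 members have the same sign in both.

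The array sets share no arrays, so they give separate measurements of the 4-week difference. Across the 48 members, which are not independent replicates, the differences in the 2 sets correlated with Pearson's r of 0.818 and Spearman's rho of 0.596, and 36 members (75.0%) had the same sign. Without Tcea3, r was 0.692, and over all 4950 tested genes it was 0.702 with 73.4% of the same sign. At 2 weeks the corresponding values were -0.142 for the members, 22 of which (45.8%) had the same sign, and -0.0449 for all tested genes.

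At 2 weeks of age the comparison asks how the members stood earlier, and none of the 48 was called in either direction by limma, against 0.0202% of all tested genes, which is 1 gene. Only 1 member, Ell, had an unadjusted p under 0.05, as did 51 of all tested genes, and with the set block 0 members and 4 genes (0.0808% of those tested) were called. The members' median was 0.05 and that of all tested genes 0.04. Ell read 365.6, 381.8 and 374.9 in control and 459.3, 413.9, 598.7 and 509.5 in CKO hearts, a difference of 0.38 ± 0.14 (adjusted p = 1). Polr2l read 1975, 2035 and 2068 in control and 2206, 2307, 2180 and 2490 in CKO hearts, a difference of 0.18 ± 0.12 (adjusted p = 1). These were the 2 members whose groups did not overlap (4.17%, against 2.42% of all tested genes).

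Of the members called at 4 weeks, Tcea3, Ell2 and Gtf2a1 had overlapping groups at 2 weeks. Tcea3 read 446.2, 548.8 and 255.3 in control and 335.9, 311.1, 252.1 and 222.3 in CKO hearts, and its difference of -0.50 ± 0.37 was not called (adjusted p = 1). The control array at 255.3 and the CKO arrays at 252.1 and 222.3 belonged to the smaller array set. Within each set the CKO arrays read below the controls, and how many genes do so was not counted. Ell2 read 247.0, 298.3 and 259.5 in control and 207.8, 290.5, 382.4 and 660.2 in CKO hearts, with the 2 highest values in CKO arrays of the smaller set, and differed by 0.38 ± 0.29. Gtf2a1 differed by 0.14 ± 0.19. In the other groups the member with the smallest p was Gtf3c2 among TFIII factors (0.33 ± 0.24), Med1 in Mediator (0.37 ± 0.22), Gtf2f2 among basal factors (0.25 ± 0.16), Taf11 among TFIID members (0.21 ± 0.16) and Polr1c among polymerase I subunits (-0.03 ± 0.12).

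The difference between the 4-week and 2-week knockout effects was tested directly, and 1 member was called, against 1.56% of all tested genes. For Tcea3 the effect at 4 weeks minus that at 2 weeks was -2.21 ± 0.51 on the log2 scale (adjusted p = 0.0461, limma). That call stood near the threshold: it was lost when any 1 array was left out except control replicate 1 at 4 weeks, with adjusted p between 0.00263 and 0.148, while the difference stayed between -2.76 and -1.88. For Ell2 the corresponding value was 1.04 ± 0.40 (adjusted p = 0.331), for Gtf2a1 0.54 ± 0.26 (adjusted p = 0.545) and for Polr2l 0.44 ± 0.16 (adjusted p = 0.291). With the set block, Tcea3 (-2.28 ± 0.31), Ell2 (1.08 ± 0.33), Polr2l (0.45 ± 0.13) and Tcea1 were called, 4 members against 12.5% of all tested genes. With inferred sex added to the set block, only Tcea3 was called (-2.16 ± 0.32, adjusted p = 0.000596), against 9.11% of all tested genes. Ell2 (1.08 ± 0.35, adjusted p = 0.0715), Polr2l (0.42 ± 0.13, adjusted p = 0.0586) and Tcea1 (0.39 ± 0.13, adjusted p = 0.0701) then missed the threshold.

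The age comparisons ask how the members differed between 2 and 4 weeks within a genotype, and they share arrays with the knockout comparisons. In control hearts no member was called, and none had an unadjusted p under 0.05. Of all tested genes 0.727% were called by limma and 328 had an unadjusted p under 0.05. With the set block again no member was called, but 8 had an unadjusted p under 0.05, and 5.92% of all tested genes were called. Tcea3 differed by 0.45 ± 0.39 and Ell2 by -0.12 ± 0.31 in controls, 4 weeks minus 2 weeks. Polr2d alone had control ages without overlap (2.08% of members, against 10.1% of all tested genes), with a difference of -0.35 ± 0.17. Tceal9, at -0.74 ± 0.39 in controls, read 935.2, 705.8 and 353.5 at 2 weeks, so that its 2-week controls themselves differed widely between array sets. Of the 6 fibroblast markers, Col1a1 was called lower at 4 weeks in controls (-1.23 ± 0.24, adjusted p = 0.0347, limma), and 4 were with the set block. Fibroblast sums were 12520 to 18380 at 2 weeks and 9109 to 10540 at 4 weeks. Smooth muscle with pericyte sums (5213 to 6353, then 3854 to 4569) and erythroid sums (7533 to 7927, then 5890 to 7325) did not overlap either. None of the 6 cardiomyocyte markers was called. Their part was not tested.

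In CKO hearts 6 members (12.5%) were called with age, against 6.59% of all tested genes (3.78% higher and 2.81% lower). Ell2 rose by 0.92 ± 0.26 (adjusted p = 0.0455, limma), Gtf2a1 by 0.80 ± 0.16 (adjusted p = 0.00934) and Polr2l by 0.43 ± 0.10 (adjusted p = 0.0219). Tcea3 fell by 1.76 ± 0.32 (adjusted p = 0.00460), Gtf2i fell by 0.78 ± 0.16 (adjusted p = 0.00935) and Gtf3c1 fell by 0.62 ± 0.17 (adjusted p = 0.0470). Gtf2i read 1115, 848.5, 702.6 and 725.7 in CKO hearts at 2 weeks, all above the 400.0 to 560.3 at 4 weeks. Gtf3c1 read 545.2, 460.2, 316.9 and 354.8 at 2 weeks, all above the 229.9 to 294.3 at 4 weeks. The ages of Ell2 overlapped in CKO hearts, through a single 2-week array at 660.2. Of the 6 cardiomyocyte markers 5 were also lower at 4 than at 2 weeks in CKO hearts, and of the 6 fibroblast markers 1 was higher. Of the 6 smooth muscle and pericyte markers 1 was called higher, Cnn1 (1.19 ± 0.30, adjusted p = 0.0302, limma), and none lower. Their part in these changes was not tested.

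Leaving out single arrays affected 3 of these 6 age calls. The Ell2 call remained only without CKO replicate 4 at 2 weeks (0.68 to 1.21, adjusted p 0.00401 to 0.129). The Gtf3c1 call remained in 2 of 15 such fits, without control replicate 2 at 4 weeks or CKO replicate 3 at 2 weeks (-0.74 to -0.49, adjusted p 0.0335 to 0.141). Polr2l lost its call without CKO replicate 1 or 3 at 4 weeks or CKO replicate 1, 2 or 3 at 2 weeks (0.38 to 0.49, adjusted p 0.0136 to 0.0675). Tcea3, Gtf2a1 and Gtf2i kept theirs in all 15. With the set block 15 members were called (11 higher and 4 lower, 31.2%), against 25.1% of all tested genes. The added ones were Gtf2b, Supt5, Polr2j, Polr2f, Polr2e, Taf10, Nelfa and Med10, higher at 4 weeks, and Med20, lower at -0.40 ± 0.14 (adjusted p = 0.0472).

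**Figure D4:**
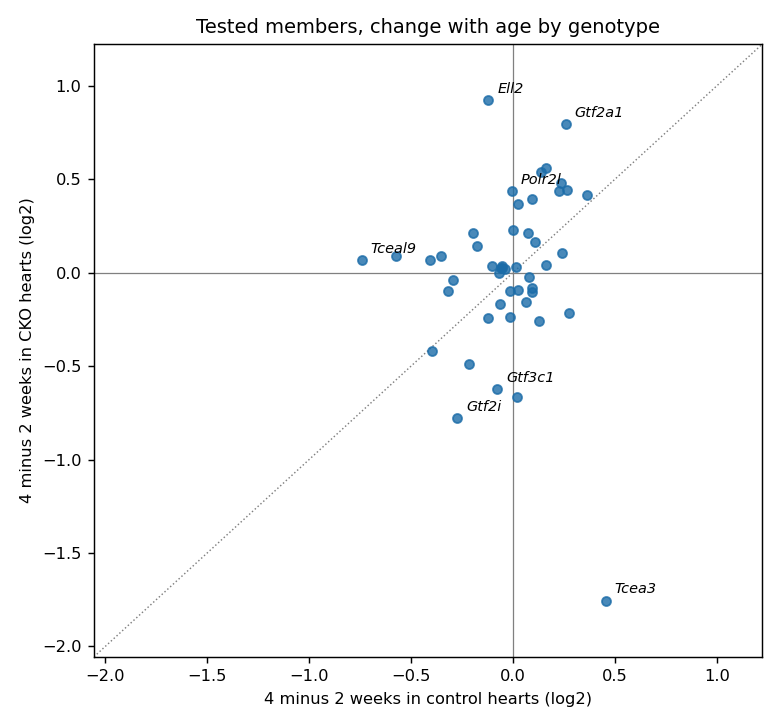
Difference between 4 and 2 weeks in control hearts (x axis) and CKO hearts (y axis) for the 48 tested members, in log2 units, 1 point per gene; the dotted line marks equality. Tcea3 lies at 0.45 in controls and -1.76 in CKO hearts, and Ell2 at -0.12 and 0.92.

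A list of 65 other genes of the pathway (pause release, elongation, capping, phosphatases of the C-terminal domain, termination, polymerase I and III factors, mitochondrial transcription and the Mediator kinase) had 37 measured and 22 tested genes. At 4 weeks 2 of the 22 were called higher and 0 lower in CKO hearts, against 11.2% of all tested genes called, and the median was -0.05. They were Ssu72, a phosphatase of the C-terminal domain (0.66 ± 0.17, adjusted p = 0.0254, limma), and Cdk8, the Mediator kinase (0.54 ± 0.16, adjusted p = 0.0439). None of the 4 tested genes of the pause release kinase and its regulators was called in any of the 5 comparisons, and at 2 weeks, with age in either genotype and in the difference of effects none of the 22 was called by limma, with 1 gene under an unadjusted p of 0.05 in each of these comparisons. With the set block, 2 rose and 3 fell at 4 weeks, against 35.5% of all tested genes called.

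By a rule on the correlation with Tcea3 over the 15 arrays, the genes most like it were Gsta4 (Pearson's r 0.983), Cntn4 (0.967), Myh6 (0.964), Etfb (0.955) and Bckdhb (0.946). The arrays of a genotype and age share their group, so these values describe the pattern only. Without the 2 arrays farthest from the median of Tcea3, the correlations ran from 0.928 to 0.975. At 4 weeks Gsta4, a glutathione transferase, differed by -2.62 ± 0.39 between CKO and control hearts, near the -2.71 of Tcea3, and Myh6, the cardiomyocyte myosin heavy chain, by -0.39 ± 0.07.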

How the data were processed

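The deposited table holds linear intensity values for 12422 probe sets on each array. Per the labels' protocols, RNA was extracted with Trizol and columns and labelled with biotin. How the authors' software corrected background and scaled the arrays was not given in the sources used here. Array medians ran from 173.7 to 216.8 and were kept, at a ratio of 1.248. The smaller array set had medians of 199.6 or more and the larger of at most 190.9. For arrays, their number limits the precision.

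From these values log2(intensity + 16) was computed. In the platform annotation 10833 probe sets had 1 symbol, 396 had several and 1193 had none. The dimmest 40% of 8251 genes were left out, which left 4950 tested, with back-transformed means of 183.8 or more. Members had 84 probe sets, and 15 members had several. limma 3.58.1 in R 4.3.3 fitted 1 coefficient per group over all 15 arrays with an intensity trend, and two-sided adjusted p-values cover all tested genes. The fit was tested on simulated data with independent noise for each gene and array. Those data held no array sets, so that test does not cover their effect on the calls. Adjusted p-values of single probe sets come from a fit to all probe sets. The 5 comparisons were CKO against control at each age, the difference of these, and 4 against 2 weeks in each genotype. Several share arrays and are not independent.

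Same-numbered control and CKO arrays were checked for pairing by the correlation of their deviations from the group means. It was 0.827, -0.553 and 0.584 at 4 weeks, where the arrays numbered 2 lay in different array sets and the others in the same one. At 2 weeks it was 0.814, 0.665 and 0.890, and same-numbered arrays also lay in the same array set. This check cannot tell pairing from array set, and the main fit did not take the numbers as pairs. Alternatives were other scalings, pseudocounts and filters, array set, inferred sex (Xist against Uty) and replicate number as blocks, and each array left out.

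The members, role groups and lists were chosen with earlier results of these data known. Named with values were members called in any comparison, a set of basal and elongation factor genes, the member with the smallest p of each role group, members whose groups did not overlap, and members whose probe sets disagreed. Genes on probe sets with several symbols were not analysed here. Promoter sequences matched 53 of the 64 members by symbol.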

Additional observations from a re-analysis of the deposited data

Results flagged for a closer look

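Among 128 groups of 4 or 5 arrays examined (the CKO groups of the 64 members), 2 held an array far from the others by Dixon's criterion, which chance exceeds in about 1 of 20 groups. Both arrays were CKO replicate 5 at 4 weeks. Nelfa, the NELF subunit, read 372.6 there and 315.6 to 329.8 in the other 4 arrays of the group. Polr1a, the largest polymerase I subunit, read 330.9 there and 580.1 to 709.5 in the other 4.

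The knockout effect on Tcea3 differed between the ages: the effect at 4 weeks minus the effect at 2 weeks was -2.21 on the log2 scale (adjusted p = 0.0461, limma). That call lay near the threshold and was kept under 7 of 13 alternatives and in 1 of 15 fits without 1 array.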

How the results depend on the processing

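Counts of called members at 4 weeks (4 in all) became 17 with a block for array set, also 17 with quantile normalization added or with inferred sex added, 12 in each array set alone, and 3 to 4 when single arrays were left out. For the difference of the knockout effects the main count was 1, Tcea3 (1.56%). The count was 0 after quantile normalization (2.2%), after median scaling (0.141%) and without the filter on dim genes (0.764%). It was also 0 with a pseudocount of 64 (1.56%) and without the intensity trend (1.13%). With a block for array set it was 4 (12.5%), 3 with quantile normalization added (13.1%) and 1 with inferred sex added (9.11%). In the larger set alone it was 2 (7.25%), and 0 to 1 when single arrays were left out (0.404% to 1.68%). With age in control hearts (0) it was 1, Tceal9, with the array set and inferred sex as blocks (6.51%) and in the larger set alone (5.37%). With age in CKO hearts (6) it was 4 after quantile normalization, after median scaling and without the filter on dim genes, 3 when only these groups were fitted, 15, 14 and 13 with a block for array set, that block with quantile normalization and that block with inferred sex, 11 in the smaller and 8 in the larger set alone, and 3 to 5 when single arrays were left out. With the replicate number as a block, 3 members were called at 4 weeks (6.38%), 0 in the difference of effects (0.465%) and 3 with age in CKO hearts (3.05%). At 2 weeks the count was 0 (0.0202%). It was 0 again (0.121%) in the block fitted to the 2-week arrays alone, which was added after seeing the data. The replicate block changed no other count of called members. No called member changed sign under any alternative run, and the cause of these changes in counts was not tested. Tcea3, Ell2 and Polr2l at 4 weeks and Tcea3 and Gtf2a1 with age in CKO hearts kept their call under all 13 alternatives and all 15 fits without 1 array. With age in CKO hearts, Gtf2i lost its call under median scaling only. With 3 to 5 arrays a group, an adjusted p above the threshold does not show that a member was the same in both groups.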
